A study of Mus musculus with 15 samples.

Results

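The 9 genes described here are Txnip, its alpha-arrestin relatives Arrdc1, Arrdc2, Arrdc3 and Arrdc4, the glucose-sensing transcription factors Mlxip (MondoA) and Mlxipl (ChREBP) with their shared partner Mlx, and Klf10. They were taken by symbol from the 29072 gene symbols of the deposited expression table, using for each the transcript row with the highest mean over the 15 libraries. Of the 9, 8 passed the filter on low values (at least 0.5 RPKM, reads scaled to transcript length and library depth, in at least 3 libraries) that left 13869 genes for testing, and Mlxipl did not. The cells were brown preadipocytes, the precursors of brown fat cells, derived from the interscapular depot of 129SvEv mice and immortalised with the SV40 large T antigen, which all 5 groups therefore carry. Each group had 3 libraries: untreated control cells, cells given 5.56 nM of Fgf1, Fgf8b or FGF9 (paracrine fibroblast growth factors) over 48 h, and cells given Fgf8b plus 2 µM of Bay-876, which blocks glucose uptake through GLUT1, likewise over 48 h. The culture time of the control is not stated. By the series text every FGF came with heparin, a cofactor of FGF binding, at 1 µg/ml, whereas in the sample labels heparin appears under FGF9 alone, and its presence in the control is not stated. There was no group with Bay-876 or heparin alone, so the inhibitor was compared with Fgf8b. Since it is not stated that replicates are separate cultures, p-values measure the spread between libraries, which may be technical.

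MondoA and ChREBP are held in the cytoplasm until hexose phosphates, formed as glucose enters the cell and is phosphorylated, let them reach the nucleus with Mlx. There they bind carbohydrate response elements, which are paired E-box-like cores set a short distance apart, and Txnip and Arrdc4 are their best known targets. TXNIP in turn binds thioredoxin and drives GLUT1 off the cell surface, which closes a feedback loop on glucose uptake, and its ARRDC relatives link membrane proteins to ubiquitin ligases.

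The promoters of the 3 genes that fell most with Bay-876 are shown, since the response element of this pathway lies in such sequence. They are the 250 bases before the RefSeq start site on GRCm38.p6, written 5′ to 3′ on the gene's strand, with each core (CACGNG, or CNCGTG as its reverse complement) in capitals. The Txnip promoter is chr3:96557707-96557956 on the plus strand, the Arrdc4 promoter chr7:68749239-68749488 on the minus strand, and the Arrdc3 promoter, 1 of 3 listed for the gene, chr13:80883134-80883383 on the plus strand.
Txnip: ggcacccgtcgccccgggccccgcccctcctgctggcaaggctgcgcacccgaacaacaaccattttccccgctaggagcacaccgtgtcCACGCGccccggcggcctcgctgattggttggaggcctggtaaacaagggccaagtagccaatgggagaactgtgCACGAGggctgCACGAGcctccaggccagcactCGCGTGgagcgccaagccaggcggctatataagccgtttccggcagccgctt
Arrdc4: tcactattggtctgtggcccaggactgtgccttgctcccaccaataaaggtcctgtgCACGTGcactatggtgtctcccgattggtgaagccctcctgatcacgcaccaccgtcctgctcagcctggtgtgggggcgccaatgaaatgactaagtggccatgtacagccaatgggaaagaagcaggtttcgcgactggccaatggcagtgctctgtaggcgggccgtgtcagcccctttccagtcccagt
Arrdc3: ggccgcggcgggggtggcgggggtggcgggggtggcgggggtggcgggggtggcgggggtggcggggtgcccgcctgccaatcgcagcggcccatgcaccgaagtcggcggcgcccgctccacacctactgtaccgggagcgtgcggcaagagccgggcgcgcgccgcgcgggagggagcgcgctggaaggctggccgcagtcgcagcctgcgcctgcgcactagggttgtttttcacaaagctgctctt

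Counting the first transcribed base as 0, 2 cores with 5 bases between them, the layout of a carbohydrate response element, lay at -85 to -69 in the Txnip promoter as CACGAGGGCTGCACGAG. Both strands were searched, over windows of 300 bases (the 250 shown and the first 50 transcribed). Such a pair was found in 27 of 32851 mouse promoters (0.0822%), against 27.5% with at least 1 core. Among the 8 described genes with a promoter in the table, Txnip held the 1 pair found. The palindromic E-box CACGTG, which matches both spellings of the core and was counted in both searches, occurred in 7.15% of promoters and lay at -193 to -188 in Arrdc4, at -40 to -35 in Mlx and in 1 of 2 Mlxipl promoters. No core was found in these windows of Arrdc3 or Mlxip. The Arrdc4 window held 6 copies of CCAAT or its reverse complement ATTGG, a motif looked for after the sequences had been seen, against 2 in Txnip. At least 1 copy was found in 37.4% of promoters and at least 4 in 1.06%. These matches describe letters in the windows and were not tested as sites.

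Libraries held 27.01 to 42.6 M reads, recovered from the steps of the deposited values. Preadipocyte markers were present, with 7 of 8 at a mean of 1 RPKM or more over the 15 libraries, and Myod1, Myog and Myf5 of the muscle list were at 0 in all libraries. Of the other lists, 2 of 6 mature adipocyte markers, 2 of 6 macrophage markers and 1 of 6 endothelial markers reached that mean. The summed preadipocyte markers moved with treatment, from 1620 to 1792 RPKM in control libraries to 787 to 816 with Fgf1, 327 to 375 with Fgf8b, 319 to 369 with FGF9 and 141 to 146 with Fgf8b plus Bay-876. The summed endothelial markers, of which Kdr was the one at that mean, also moved, from 7.65 to 8.98 RPKM in control to 1.68 to 1.74 with Fgf1, 0.391 to 0.571 with Fgf8b, 0.336 to 0.515 with FGF9 and 0.752 to 0.921 with Fgf8b plus Bay-876. The part of these marker changes in the results was not tested. In bulk RNA, fewer cells with a transcript and less transcript per cell cannot be told apart.

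Adding Bay-876 to Fgf8b all but removed the Txnip transcript, reduced Arrdc4 about 9.63-fold and Arrdc3 3.14-fold, and changed the sensor gene Mlxip little. Mlxipl, the other sensor gene, lay below the filter on low values and was not tested. Txnip fell from 100.1 to 0.722 RPKM. Mlxip, which encodes MondoA, stood at 5.49 RPKM without and 5.36 RPKM with the inhibitor, while Mlx rose 1.29-fold and Klf10 fell to 0.766 of its level. Of the 8 tested genes 5 fell and 1 rose at an adjusted p under 0.05 (limma on log2(RPKM + 0.5), with Benjamini-Hochberg adjustment over all 13869 genes). The fall of Arrdc1 among them was lost in several alternative settings. Among all genes 57.3% passed by the same rule, 34.8% lower and 22.5% higher, so the sizes describe the set better than the number of calls. The median change of the 8 was -0.33 on the log2 scale, beside -0.08 over all genes.

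**Figure D1:**
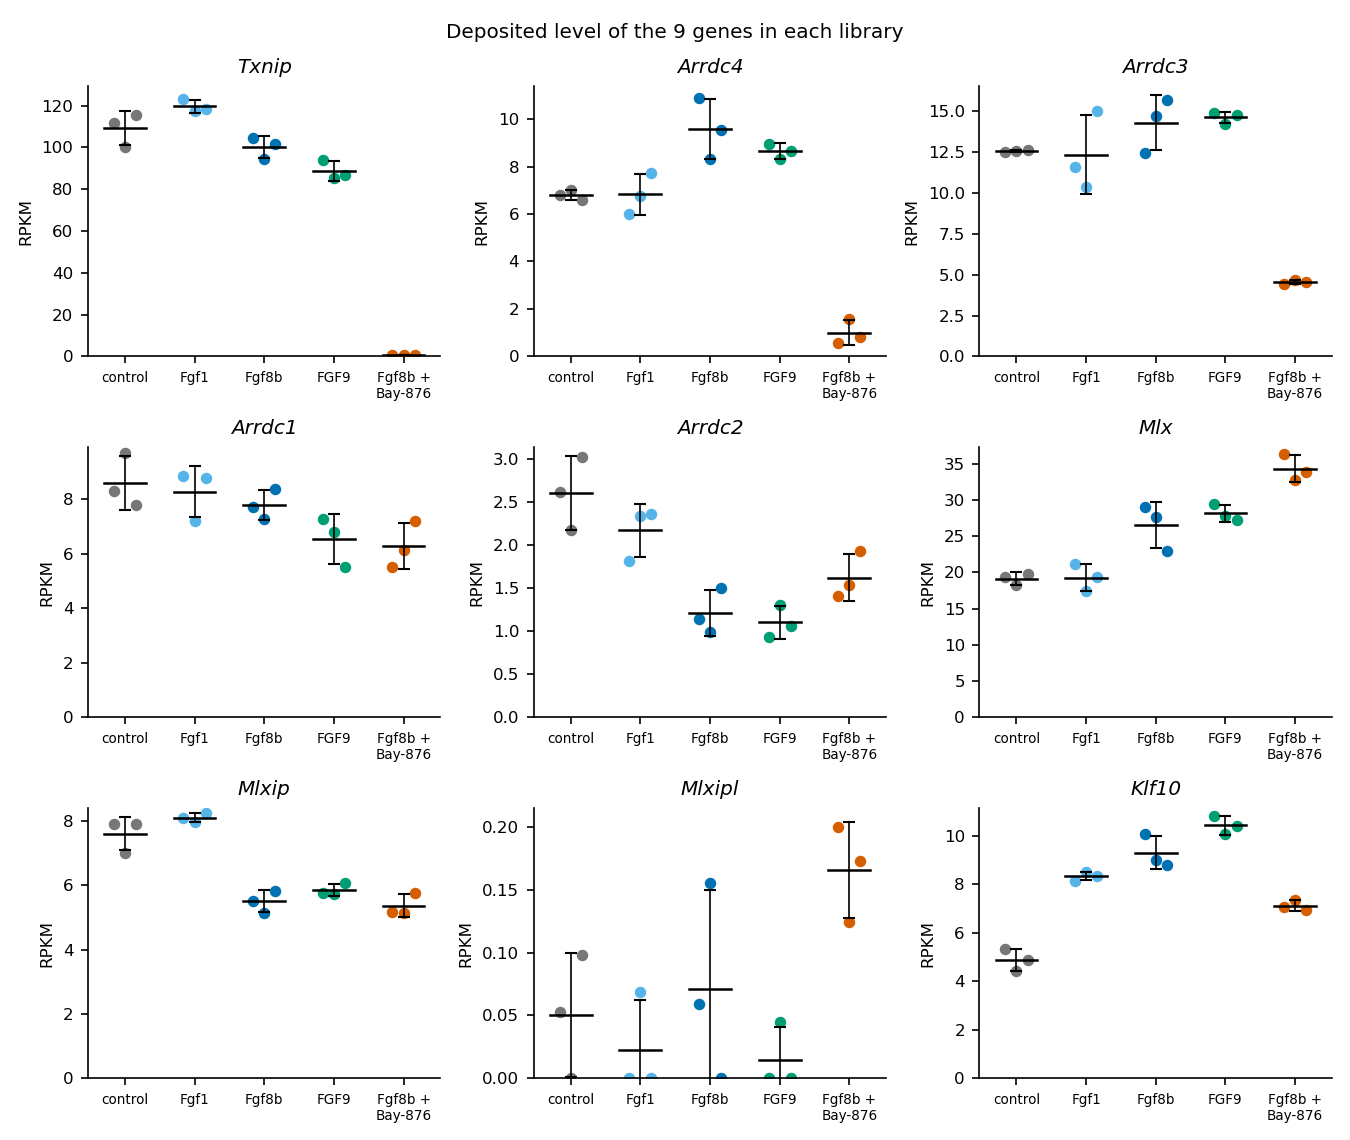
Deposited RPKM of each of the 9 genes (vertical axes, each from 0) in the 3 libraries of each group (points), with the group mean (bar) and SD (whiskers). The Fgf8b plus Bay-876 libraries lie at 0.64 to 0.831 RPKM for Txnip and at 0.568 to 1.58 RPKM for Arrdc4, under every library of the other groups.

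Txnip, the alpha-arrestin that binds thioredoxin and GLUT1 (chr3:96557957-96561883, plus strand, GRCm38), was the most abundant of the 9 genes in every group but the one with Bay-876. Control libraries read 112, 100.3 and 116 RPKM, Fgf1 libraries 123, 118 and 119 RPKM, Fgf8b libraries 104, 94.4 and 102 RPKM, and FGF9 libraries 94.1, 85.2 and 86.8 RPKM. With Fgf8b plus Bay-876 the values were 0.831, 0.64 and 0.695 RPKM. The 3 inhibitor libraries thus stood far under all 12 others, and these 12 lay close together. The mean fell 139-fold from 100.1 ± 5.19 to 0.722 ± 0.0986 RPKM (SD, n = 3), with 222 reads left in the 3 inhibitor libraries against 26587 with Fgf8b alone. The 95% interval of that ratio from the reads was 120 to 158, which covers counting error only. On the log2(RPKM + 0.5) scale, which understates changes down to low values, the difference was -6.37 ± 0.07 (SE, limma, adjusted p = 4.7e-18), the largest fall of the 13869 tested genes. With a pseudocount of 0.1 Txnip had rank 2 among falls, and with voom on the recovered reads rank 3 at -7.10. Against the control the fall was -6.49 (limma, adjusted p = 1.45e-18), where 7 genes fell further. All 8 table rows for Txnip carried it, at 104.9-fold to 173-fold between Fgf8b alone and Fgf8b plus Bay-876. Rows of a gene can count the same reads, here and for the genes below, so they are not separate measurements. Gm15441, a gene on the opposite strand that overlaps Txnip, read 29.2 RPKM in control, 27.0 with Fgf8b and 0.203 with Fgf8b plus Bay-876. The library kit named in the labels does not mark strand, so reads of the pair cannot be told apart where they overlap.

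Without the inhibitor, the FGFs moved Txnip within a narrow band. The order of the means was Fgf1 at 119.8 ± 3.12, control at 109 ± 8.02, Fgf8b at 100.1 ± 5.19 and FGF9 at 88.7 ± 4.74 RPKM (SD, n = 3). No neighbours in that order differed past the threshold. The limma differences were 0.13 ± 0.07 for Fgf1 against control (adjusted p = 0.153), -0.12 ± 0.07 for Fgf8b against control (adjusted p = 0.129) and -0.17 ± 0.07 for FGF9 against Fgf8b (adjusted p = 0.592). Groups further apart did differ, with FGF9 under the control by -0.30 (limma, adjusted p = 0.00137), Fgf8b under Fgf1 by -0.26 (adjusted p = 0.00441) and FGF9 under Fgf1 by -0.43 (adjusted p = 5.6e-05). The Fgf8b difference passed with trimmed-mean scaling (-0.24, limma, adjusted p = 0.00518) and without control replicate 2 (-0.18, adjusted p = 0.0393).

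Arrdc4, the relative of TXNIP that shares the MondoA response and its action on glucose uptake (chr7:68736995-68749241, minus strand), stood at 6.80, 7.0 and 6.58 RPKM in control libraries and at 6.0, 6.76 and 7.73 RPKM with Fgf1. Fgf8b libraries read 10.9, 8.32 and 9.54 RPKM, and FGF9 libraries 8.97, 8.32 and 8.67 RPKM. The Fgf8b plus Bay-876 libraries read 0.568, 1.58 and 0.833 RPKM, from 13, 29 and 22 reads. Every inhibitor library lay far under all others, and the Fgf8b libraries in turn stood above all control libraries. The mean with Fgf8b was 9.63-fold that with the inhibitor added (reads ratio interval 7.76 to 13.2), a difference of -2.80 ± 0.17 (SE, limma, adjusted p = 2.76e-09) and the fall of rank 32 among all genes. Its 5 table rows gave 9.63-fold to 10.9-fold. Fgf8b alone raised Arrdc4 by 0.46 ± 0.17 (limma, adjusted p = 0.0311), in the opposite direction to the estimate for Txnip. The row used went from 6.80 to 9.58 RPKM and another from 4.31 to 5.10 RPKM, so the size depends on the row. The call was lost with trimmed-mean scaling (0.35, limma, adjusted p = 0.0991), a pseudocount of 0.1 (adjusted p = 0.0736) and no filter on low values (adjusted p = 0.111). It was also lost without any of control replicates 1, 2 and 3 or Fgf8b replicates 1 and 3 (adjusted p = 0.0547 to 0.121). FGF9 gave 0.33 ± 0.17 (limma, adjusted p = 0.112), which passed with voom (0.35, adjusted p = 0.0331).

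Arrdc3, an adaptor that links membrane proteins to NEDD4-type ubiquitin ligases (chr13:80883384-80896042, plus strand), read 12.5, 12.6 and 12.7 RPKM in control libraries, 11.6, 10.4 and 15 RPKM with Fgf1 and 12.5, 14.7 and 15.7 RPKM with Fgf8b. FGF9 libraries read 14.9, 14.2 and 14.8 RPKM, and Fgf8b plus Bay-876 libraries 4.44, 4.69 and 4.56 RPKM. All inhibitor libraries were below the lowest of the other 12, whose groups mostly overlapped. The fall with Bay-876 was 3.14-fold (reads ratio interval 2.74 to 3.60), or -1.54 ± 0.11 (SE, limma, adjusted p = 8.1e-09), with rank 182 among falls. Its 7 rows gave 2.48-fold to 3.14-fold. The limma estimates against control, 0.17 ± 0.11 for Fgf8b (adjusted p = 0.167) and 0.21 ± 0.11 for FGF9 (adjusted p = 0.0945), did not pass. The rise of FGF9 over Fgf1 was 0.25 (limma, adjusted p = 0.0492), and it was lost in 16 of the 24 alternative settings, among them leaving out any 1 control, FGF9 or inhibitor library, Fgf1 replicates 1 or 2 or Fgf8b replicate 2 (adjusted p = 0.0543 to 0.261).

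**Figure D2:**
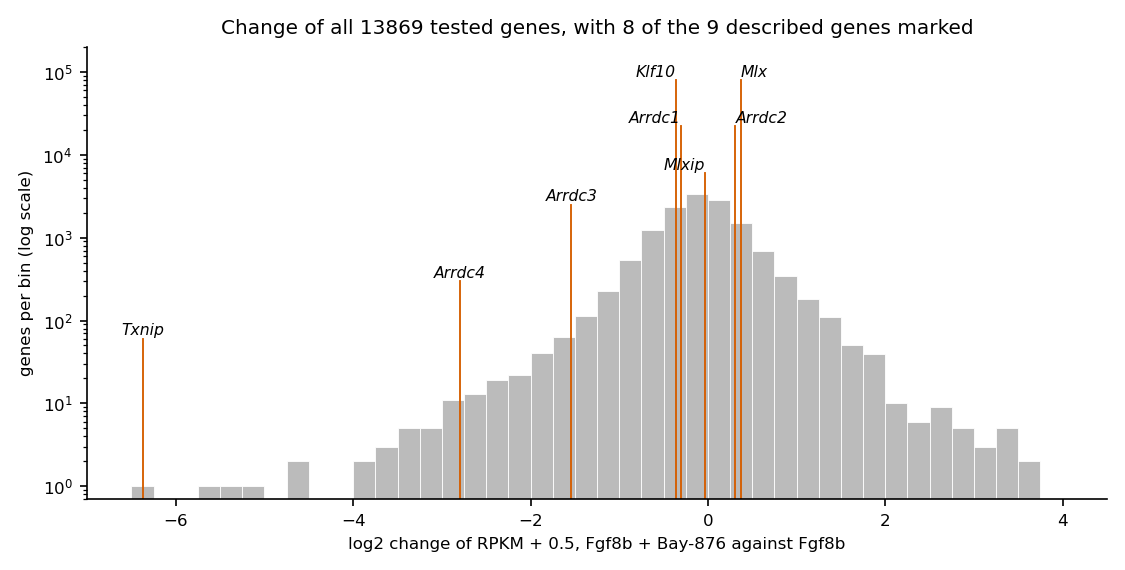
Number of tested genes (vertical axis, log scale) by log2 change of RPKM + 0.5 between Fgf8b plus Bay-876 and Fgf8b alone (horizontal axis, bins of 0.25), with 8 of the 9 described genes marked by orange lines. Txnip lies at -6.37 at the far left edge, Arrdc4 at -2.80 and Arrdc3 at -1.54 in the left tail, and the other 5 between -0.36 and 0.37.

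Arrdc1, which recruits the ESCRT protein TSG101 to bud vesicles from the plasma membrane (chr2:24925352-24935252, minus strand), changed little. It read 8.30, 9.71 and 7.81 RPKM in control, 8.86, 7.21 and 8.76 RPKM with Fgf1, 7.70, 7.27 and 8.39 RPKM with Fgf8b, 7.29, 6.80 and 5.51 RPKM with FGF9 and 5.52, 6.12 and 7.19 RPKM with Fgf8b plus Bay-876. Control, Fgf1 and Fgf8b libraries overlapped, and the FGF9 and inhibitor libraries lay at the low end. The fall with Bay-876 was -0.30 ± 0.12 (limma, adjusted p = 0.0443), and that with FGF9 against control -0.37 ± 0.12 (adjusted p = 0.0116). The Bay-876 call was lost without control replicate 1, Fgf1 replicate 3, Fgf8b replicates 1 and 3 or inhibitor replicates 1 and 2 (adjusted p = 0.051 to 0.172). It was also lost with trimmed-mean scaling (-0.23, adjusted p = 0.116), summed rows (-0.19, adjusted p = 0.155) and no filter on low values (adjusted p = 0.124). A replicate block (limma, adjusted p = 0.0625) and voom (adjusted p = 0.0732) lost it as well. Its 16 transcript rows did not share a direction: the level with Bay-876 was 0.685 to 1.51 times that with Fgf8b alone. The FGF9 call was lost without control replicate 2 (adjusted p = 0.0643) or FGF9 replicate 3 (adjusted p = 0.0731).

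Arrdc2, a less studied alpha-arrestin (chr8:70835129-70839720, minus strand), followed another course from its relatives. It read 2.62, 2.17 and 3.02 RPKM in control, 1.82, 2.34 and 2.36 RPKM with Fgf1, 1.15, 0.987 and 1.51 RPKM with Fgf8b and 0.931, 1.31 and 1.06 RPKM with FGF9. With Fgf8b plus Bay-876 it read 1.4, 1.54 and 1.93 RPKM. The Fgf8b and FGF9 libraries all lay under those of control and Fgf1, and the inhibitor libraries overlapped both sets. Fgf8b lowered Arrdc2 by -0.86 ± 0.14 (SE, limma, adjusted p = 7.57e-05) and FGF9 by -0.95 ± 0.14 (adjusted p = 2.55e-05), to 0.466 and 0.423 of the control mean. Fgf1 gave -0.21 ± 0.14 (limma, adjusted p = 0.281), and Fgf8b lay below Fgf1 directly by -0.65 (adjusted p = 0.00111). Bay-876 gave 0.31 ± 0.14 over Fgf8b (limma, adjusted p = 0.0742), an estimate of the sign opposite to those of Txnip, Arrdc3 and Arrdc4, and it passed with trimmed-mean scaling (0.36, adjusted p = 0.0353) and without Fgf8b replicate 3 (0.43, adjusted p = 0.0251).

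The sensor MondoA (Mlxip, chr5:123394798-123457932, plus strand) was expressed in all groups. It read 7.91, 7.0 and 7.89 RPKM in control, 8.07, 7.95 and 8.23 RPKM with Fgf1, 5.51, 5.14 and 5.83 RPKM with Fgf8b, 5.75, 5.72 and 6.08 RPKM with FGF9 and 5.18, 5.14 and 5.76 RPKM with Fgf8b plus Bay-876. Control and Fgf1 libraries formed a higher set and the other 9 a lower one, with no overlap. Fgf8b lowered it by -0.43 ± 0.07 (SE, limma, adjusted p = 8.49e-05) and FGF9 by -0.35 ± 0.07 (adjusted p = 0.00059). Adding Bay-876 gave a difference of -0.03, with a 95% interval of -0.19 to 0.12 (limma, adjusted p = 0.724).

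Mlx, the dimer partner of both sensors (chr11:101087277-101092207, plus strand), ran the other way. It read 19.4, 18.2 and 19.8 RPKM in control, 21.1, 17.4 and 19.3 RPKM with Fgf1, 29.1, 27.6 and 23.0 RPKM with Fgf8b, 29.5, 27.7 and 27.2 RPKM with FGF9 and 36.3, 32.7 and 33.8 RPKM with Fgf8b plus Bay-876. The libraries rose in 3 steps without overlap, from control and Fgf1 through Fgf8b and FGF9 to the inhibitor group. The rises were 0.46 ± 0.09 with Fgf8b (SE, limma, adjusted p = 0.00022), 0.54 ± 0.09 with FGF9 (adjusted p = 3.81e-05) and a further 0.37 ± 0.09 with Bay-876 over Fgf8b (adjusted p = 0.0017). Psmc3ip overlaps Mlx on the opposite strand, so some reads may belong to it. Its level went from 14.2 RPKM in control to 35.5 with Fgf8b and 21.7 with Fgf8b plus Bay-876.

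ChREBP (Mlxipl, chr5:135089890-135138382, plus strand), the sensor that liver and fat cells use for lipogenesis, was measured at few reads. Its row of the highest mean RPKM held 3 reads in the control group, 1 with Fgf1, 4 with Fgf8b, 1 with FGF9 and 10 with Fgf8b plus Bay-876, at group means of 0.0148 to 0.166 RPKM. In that row the ratio of the inhibitor group's reads to those with Fgf8b was 2.18, with a counting interval of 0.628 to 9.52. Each of 4 other Mlxipl rows held 16 reads in control, 5 with Fgf1, 5 with Fgf8b, 16 with FGF9 and 34 with Fgf8b plus Bay-876. These equal counts may be the same reads. The ratio of mean RPKM, inhibitor group over Fgf8b, ran from 2.32 to 6.21 over the rows with a value above 0 in Fgf8b. The gene lay below the filter on low values and was not tested.

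Klf10, a zinc-finger repressor induced early by TGF-beta and also reported as a ChREBP target (chr15:38291463-38300706, minus strand), rose with each FGF. It read 5.33, 4.43 and 4.89 RPKM in control, 8.15, 8.52 and 8.36 RPKM with Fgf1, 10.1, 9.0 and 8.81 RPKM with Fgf8b and 10.8, 10.1 and 10.4 RPKM with FGF9. With Fgf8b plus Bay-876 it read 7.07, 7.38 and 6.93 RPKM. All treated libraries lay above the control, and the inhibitor libraries lay between control and the FGF libraries. The rises were 0.72 ± 0.07 with Fgf1 (SE, limma, adjusted p = 1.75e-06), 0.87 ± 0.07 with Fgf8b (adjusted p = 5.1e-08) and 1.02 ± 0.07 with FGF9 (adjusted p = 6.17e-09). FGF9 exceeded Fgf1 by 0.30 (limma, adjusted p = 0.00211), while Fgf8b over Fgf1 was 0.15 (adjusted p = 0.102). Bay-876 lowered Klf10 by -0.36 ± 0.07 from Fgf8b (limma, adjusted p = 0.000659), and it still stood 0.51 above the control (adjusted p = 1.56e-05). The Fgf8b libraries with and without Bay-876 did not overlap for 6 of the 8 tested genes, as for 62.7% of all genes.

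Without the inhibitor, the largest changes of the set were in Klf10 and Arrdc2 rather than in Txnip. Fgf1 raised Klf10 and no other member passed (1 of 8, beside 34.4% of all genes called in either direction by limma). Fgf8b raised Arrdc4, Mlx and Klf10 and lowered Arrdc2 and Mlxip, which is 5 of 8 beside 64.4% of all genes. FGF9 raised Mlx and Klf10 and lowered Txnip, Arrdc1, Arrdc2 and Mlxip, which is 6 of 8 beside 65.7%. The 3 comparisons share the control libraries. Trimmed-mean scaling, an alternative to the values as deposited, moved the median of all genes by -0.10 in Fgf8b against control and by -0.11 in FGF9 against control. It turned the split of all calls from 5238 higher and 3693 lower to 4068 and 4614 with Fgf8b, from 5369 and 3739 to 4211 and 4671 with FGF9, and from 2677 and 2095 to 2113 and 2547 with Fgf1. Relative to those shifts the rises of Mlx and Klf10 and the falls of Arrdc2 and Mlxip with Fgf8b and FGF9 remained past the threshold.

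**Figure D3:**
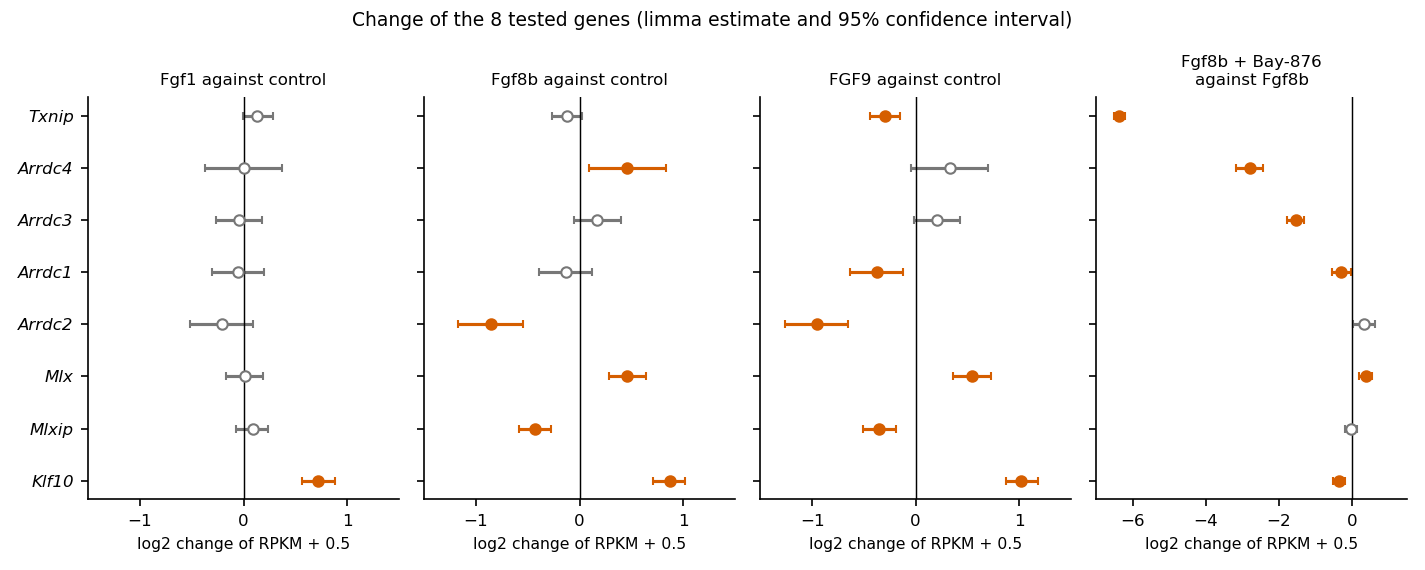
Log2 change of RPKM + 0.5 (horizontal axes) of the 8 tested genes in 4 comparisons, with limma estimates as points and 95% confidence intervals as bars, and filled orange points for an adjusted p under 0.05. The horizontal range is wider in the Bay-876 panel, where Txnip sits at -6.37, than in the FGF panels, where estimates lie between -0.95 and 1.02.

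Between the FGFs themselves, 5 of the 8 genes differed between Fgf8b and Fgf1 (59.9% of all genes by limma) and 7 of 8 between FGF9 and Fgf1 (61.9%). On leaving out 1 library these counts ran from 4 to 6 and from 5 to 7. Among others, trimmed-mean scaling lost the Arrdc4 call for Fgf8b over Fgf1 (limma, adjusted p = 0.0673). Leaving out FGF9 replicate 3 lost the Arrdc1 call for FGF9 under Fgf1 (limma, adjusted p = 0.15). FGF9 and Fgf8b differed in none of the 8 by limma (0.296% of all genes called), with 2, Txnip and Klf10, at an unadjusted p under 0.05 and none by voom. The 41 calls among all genes became 26, 25 and 25 without Fgf1 replicates 1, 2 and 3, 10, 7 and 17 without Fgf8b replicates 1, 2 and 3, and 10 and 6 without FGF9 replicates 2 and 3. With these 2 groups alone limma called 0, with 804 genes at an unadjusted p under 0.05 and 62 called by voom over all groups. The 95% intervals of FGF9 minus Fgf8b for the 8 genes ran from -0.50 at the lowest to 0.32 at the highest on the log2 scale. Against the control, the inhibitor group differed in all 8 tested genes, beside 72.7% of all genes called by limma.

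The transporter that Bay-876 blocks was measured beside its regulators. Slc2a1, which encodes GLUT1, rose from 14.6 ± 0.851 RPKM in control to 25.8 ± 1.33 with Fgf1, 38.4 ± 3.03 with Fgf8b, 47.6 ± 6.85 with FGF9 and 73.0 ± 7.83 with Fgf8b plus Bay-876 (SD, n = 3). The difference between the inhibitor and Fgf8b alone was 0.92 ± 0.10 (SE, limma, adjusted p = 1.15e-06). Of 13 tested genes of hexose uptake and hexose phosphate 7 rose with Bay-876, 3 fell and 3 did not pass. Among all genes 22.5% rose and 34.8% fell by the same rule. The median of the 13 was 0.21 beside -0.08 over all genes. Slc2a6, a lysosomal hexose transporter, rose by 1.49, Hk2, the inducible hexokinase, by 1.19 and Slc2a1 came next. Slc2a8, Slc2a3 and Slc2a12, which encode other hexose transporters, fell by 0.54, 0.52 and 0.40 from levels of 3.37, 1.51 and 1.72 RPKM. Hk2 had risen with Fgf8b already, by 1.54 over the control (limma, adjusted p = 3.57e-09).

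The thioredoxin system, whose reduced thioredoxin TXNIP binds, moved upward in the comparison in which Txnip fell. Of its 6 tested genes 4 rose with Bay-876 and none fell, where 22.5% of all genes rose and 34.8% fell by limma. The median was 0.34 beside -0.08 over all genes. Txnrd1, the cytosolic thioredoxin reductase, read 26.4 ± 1.35 RPKM in control, 29.9 ± 1.42 with Fgf1, 39.5 ± 3.18 with Fgf8b, 42.4 ± 3.36 with FGF9 and 96.6 ± 4.32 with Fgf8b plus Bay-876 (SD, n = 3). Its rise over Fgf8b was 1.28 ± 0.07 (SE, limma, adjusted p = 6.96e-10). Txn2, the mitochondrial thioredoxin, rose by 0.42 (limma, adjusted p = 3.8e-05) and Txn1, the cytosolic one, by 0.37 to 688 RPKM (adjusted p = 1.6e-05). With Fgf8b against control 5 of the 6 rose and Txn1 fell by 0.17 (limma, adjusted p = 0.00736), beside 64.4% of all genes called. With trimmed-mean scaling 3 rose and 1 fell.

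Lipogenic and glycolytic targets of ChREBP did not share the course of Txnip. Of 11 tested genes 7 rose with Bay-876 and 3 fell, beside 22.5% of all genes higher and 34.8% lower by limma. The median was 0.32 beside -0.08 over all genes. Fasn, the fatty acid synthase, rose 3.68-fold from 17.9 ± 1.96 to 65.8 ± 11.4 RPKM (1.84 ± 0.14, limma, adjusted p = 2.94e-08), Elovl6, a fatty acid elongase, by 0.97 and Acly, which makes cytosolic acetyl-CoA, by 0.85. Many of these genes are also targets of other factors such as SREBP1, and the list was not built to separate them. Fgf21, a hormone gene of the list, went the other way, at 0.0921 ± 0.0797 RPKM in control, 2.49 ± 0.536 with Fgf8b and 0.294 ± 0.134 with Fgf8b plus Bay-876 (SD, n = 3). Its fall with Bay-876 was -1.91 ± 0.18 (SE, limma, adjusted p = 2.45e-07). The Fgf21 means in control and with the inhibitor lay under the filter level of 0.5 RPKM. Its being tested, in either comparison, thus depended on groups in which it was high. Acacb, the mitochondrial acetyl-CoA carboxylase, fell by 0.52 and Khk, the fructokinase, by 0.32 (limma, adjusted p = 0.045), a call that 15 of the alternative settings lost. With Fgf8b against control 1 gene of the list, Fgf21, rose and 5 fell, beside 64.4% of all genes called by limma. Khk, Acly and Acacb led the falls at -1.71, -0.71 and -0.56, and with trimmed-mean scaling 1 rose and 9 fell.

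The MAX and MLX network holds the basic helix-loop-helix partners and rivals around MondoA. With Bay-876 3 of its 10 tested genes rose, 3 fell and 4 did not pass, beside 57.3% of all genes called (median -0.07 beside -0.08). Myc, whose protein competes for the same E-boxes, rose by 0.47 to 28.2 RPKM (limma, adjusted p = 0.00169) after a rise of 0.95 with Fgf8b over the control. Mxd4, an antagonist of MYC, read 20.3 ± 2.02 RPKM in control, 8.42 ± 0.401 with Fgf8b and 4.05 ± 0.727 with Fgf8b plus Bay-876 (SD, n = 3). It fell by 1.22 with Fgf8b (limma, adjusted p = 9.2e-07) and by a further 0.98 with Bay-876 (adjusted p = 1.44e-05). Mxi1, a relative of Mxd4, fell by 0.36 (limma, adjusted p = 0.00169). Mnt and Max rose by 0.51 and 0.28, and Mxd1 fell by 0.26 (limma, adjusted p = 0.0384), a call that 8 of the alternative settings lost.

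The HECT ubiquitin ligases that bind the PPxY motifs of alpha-arrestins split with Bay-876. Of 8 tested 3 rose, 3 fell and 2 did not pass, beside 57.3% of all genes called (median -0.08 beside -0.08). Nedd4l rose by 1.12 (limma, adjusted p = 1.72e-09) and Smurf1 by 0.75. Hecw2 rose by 0.84 from 0.188 RPKM, but only its inhibitor libraries (0.6 to 0.988 RPKM) reached the filter level of 0.5 RPKM. Its being tested thus depended on the group in which it was high. Nedd4, the most abundant at 506 ± 5.05 RPKM with Fgf8b, fell by 0.49 to 361 ± 24.2 RPKM (SD, n = 3, limma, adjusted p = 3.07e-06), and Itch and Smurf2 fell by 0.25 and 0.24. Among cargo and partner genes, the divalent metal transporter gene Slc11a2, whose product ARRDC1 and ARRDC4 help to degrade, rose by 1.01 (limma, adjusted p = 3.01e-08). Tsg101 rose by 0.36, and the ligase adaptors Ndfip1 and Ndfip2 fell by 0.56 and 0.36. Among other arrestin-fold genes 2 of 5 rose with Bay-876 and 1 fell (median -0.09), beside 57.3% of all genes called. Vps26a rose by 0.40 and Vps26c by 0.21, and Arrb2 fell by 0.26.

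FOXO factors and their targets, a list included because FOXO1 can act on Txnip, fell for the most part with Fgf8b and FGF9. With Fgf1 4 of 13 tested genes fell and 1 rose (median -0.15 beside 0.02 over all genes, 34.4% of which were called), and with FGF9 10 fell and 3 rose (median -0.63 beside 0.09, 65.7% called). With Fgf8b 10 of 13 tested genes fell and 2 rose (median -0.60 beside 0.08 over all genes, 64.4% called). Pdk4 at -2.27, Pik3ip1 at -1.80 and Sesn1 at -1.45 led the falls, while Tsc22d3 and Irs2 rose by 0.61 and 0.41. The Irs2 call was lost without control replicates 2 or 3 or Fgf8b replicates 1 or 3, and with trimmed-mean scaling, where 10 fell and 1 rose. With Bay-876 over Fgf8b 5 fell and 2 rose (median -0.18 beside -0.08 over all genes, 57.3% called). Sesn3 at -1.20, Cdkn1b at -0.65 and Sesn1 at -0.52 were among the falls, and Bcl6 and Fbxo32 were the rises. Of 8 tested AMPK subunits and upstream kinases, a kinase module whose activity promotes the degradation of TXNIP protein, 1 rose and 2 fell with Bay-876 (median -0.05). Prkaa2 rose by 0.40, and Prkag1 and Prkab2 stood at -0.54 and -0.49, beside 57.3% of all genes called. Of 4 tested relatives of Klf10, Klf9, Klf13 and Klf16 rose by 1.1, 0.33 and 0.31 and Klf11 fell by 0.42 (limma, adjusted p = 0.00557). Among all genes 22.5% rose and 34.8% fell with Bay-876. The median of the 4 was 0.32 beside -0.08 over all genes. The Klf13 call was lost without Fgf8b replicate 2.

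**Figure D4:**
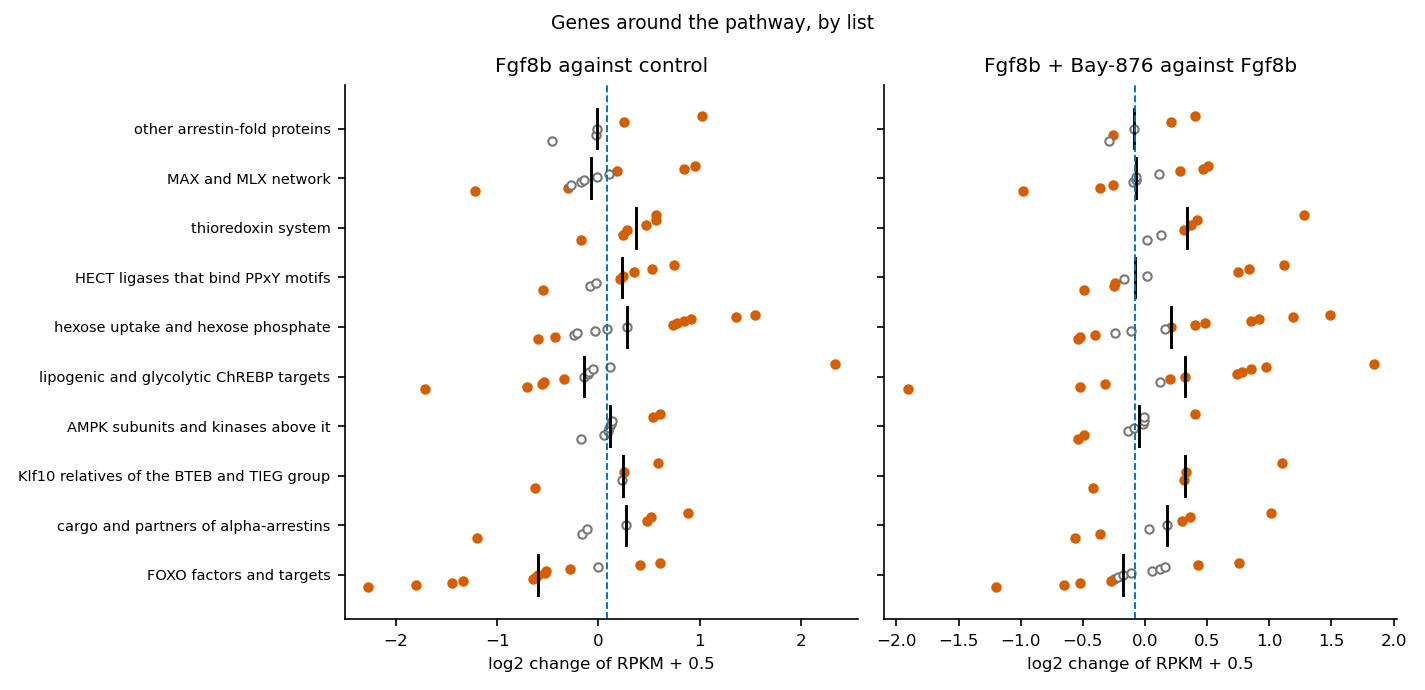
Log2 change of RPKM + 0.5 (horizontal axes) of each tested gene (points, filled orange for a limma adjusted p under 0.05) in 10 lists, for Fgf8b against control and Fgf8b plus Bay-876 against Fgf8b. Black bars mark list medians and the dashed line the median of all genes, with FOXO genes at a median of -0.60 in the first panel and -0.18 in the second.

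Predicted gene models were left out of the orders given here. Among those left out was Gm15441, which overlaps Txnip. Its group means followed the order of those of Txnip, from 32.2 RPKM with Fgf1 to 0.203 with Fgf8b plus Bay-876. Across the 15 libraries, the genes whose log2 levels ran most like Txnip among 11326 compared were Pde4b, a cAMP phosphodiesterase (Pearson r = 0.996), Col15a1, a basement membrane collagen (0.993), Auh, an enzyme of leucine breakdown (0.991), and Reck, an inhibitor of matrix metalloproteases (0.99). Col15a1 went from 22.2 RPKM with Fgf8b to 1.29 with Bay-876 added, and Pde4b from 8.01 to 1.35. Arrdc3 and Arrdc4 came at ranks 94 and 108 of this order (r = 0.957 and 0.955). Arrdc4 itself was most like Btrc, a ubiquitin ligase subunit (0.977), Zcchc24 (0.975), Chmp2a, an ESCRT subunit (0.974), and Mgp, an inhibitor of calcification (0.972), with Arrdc3 at rank 8 and Txnip at rank 18. These r values describe 15 libraries that share 5 treatments, and the 3 inhibitor libraries weigh heavily in them.

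The pair of cores in the Txnip promoter was also looked up across the genome. Of 26 genes with such a pair 21 were in the table and 15 were tested. With Bay-876 4 of the 15, Txnip among them, fell and 3 rose, beside 34.8% of all genes lower and 22.5% higher. The median was 0.01 beside -0.08 over all genes. Apart from Txnip, the falls were small: Nfkb2 at -0.24, Rbmxl1 at -0.21 and Arl2bp at -0.14. Fkbp6 rose by 0.71, Fam124a by 0.59 and Fnip1, a partner of AMPK, by 0.50 (limma, adjusted p = 0.000139). Pklr, the pyruvate kinase gene of liver in which such an element is well known, was at 0.00849 RPKM or less with Fgf8b and with Fgf8b plus Bay-876 and was not tested.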

How the data were processed

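The authors deposited 1 table of 168326 transcript rows and 15 value columns, with decimal commas and no unit named. Times the length of 46002 Ensembl transcripts, 94.4% to 95.2% of low values were whole multiples of 1 step per library (within 0.05), so the deposited values were read as RPKM. CASAVA and bcl2fastq are named per the submitters' processing notes. Aligner, build and annotation were not given in the sources used here. Whole reads were recovered for 13864 of the 13869 tested genes (99.96%, within 0.02 read) and served for intervals and voom.

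Genes with at least 0.5 RPKM in 3 libraries were tested on log2(RPKM + 0.5) with limma 3.58.1 (R 4.3.3, trend, 5 groups, 10 residual degrees of freedom), checked on simulated data, with Benjamini-Hochberg adjustment per comparison over all genes and a threshold of 0.05. Alternatives were the pseudocount, filter, scaling, summed rows, 2 groups only, a replicate block, leaving out each library, and voom. Members and lists were chosen with earlier results of these data known. Named were all 9 members, per list and comparison up to 3 passing genes with the largest change in each direction, the 4 genes most like Txnip and Arrdc4 (at least 1 RPKM in a group, predicted gene models left out), and Slc2a1, Txnrd1, Myc, Mxd4 and Mxi1. Genes with promoter pairs were picked with values known. 1 gene of the cargo list is not reported here. Gene positions come from GENCODE vM21, promoters from RefSeq on GRCm38.p6; neither need be the table's annotation.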

Additional observations from a re-analysis of the deposited data

How the results depend on the processing

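Of 1536 values of the 8 tested genes over 24 alternatives and 8 comparisons, 1459 kept their direction and their side of the threshold, 48 lost the call, 17 gained it and 12 changed sign (read on values rounded to 2 decimals), none of these 12 from a called value. The falls of Txnip, Arrdc4 and Arrdc3 with Bay-876 kept their call in all 24. The sign changes were Mlxip with Bay-876 over Fgf8b (0.03 with trimmed-mean scaling, -0.08 to 0.01 on leaving out 1 library) and, with Fgf1 against control, Mlx (-0.05 with summed rows, -0.04 with trimmed-mean scaling, -0.06 to 0.08 on leaving out 1 library), Arrdc1 (-0.12 to 0.04) and Arrdc3 (-0.19 to 0.07). Arrdc4 with Fgf1, at 0.00, ran from -0.09 to 0.08 and is not among the 12. In FGF9 against Fgf8b they were Arrdc2 (-0.19 to 0.03), Arrdc3 (-0.06 to 0.11) and Mlx (-0.01 to 0.16). The cause was not tested. The count of all genes called between FGF9 and Fgf8b by limma was 41, and became 27 with a pseudocount of 0.1, 26 without the filter, 62 with voom, 6 to 44 on leaving out 1 library and 0 with these 2 groups alone, where 804 had an unadjusted p under 0.05.

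Whether replicate numbers pair the libraries was left undecided. Of 30 same-number pairs 11 had deviations from the group means that correlated above 0.1 (range -0.443 to 0.534). Pairs of different number were not compared, so these values cannot settle it. With a replicate block, 6 of the 8 genes passed in Fgf8b against control in place of 5, Txnip being added (limma, adjusted p = 0.0448), and 6 in Bay-876 over Fgf8b, where Arrdc1 was lost (adjusted p = 0.0625) and Arrdc2 gained (adjusted p = 0.043).

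Depth limits Mlxipl, at 1 to 10 reads a group in the row used and 5 to 34 in others, and Arrdc4 with Bay-876, at 64 reads. Bay-876 was given with Fgf8b alone, at 1 dose and 1 time, and protein was not measured.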
